A study of Mus musculus with 2 samples.

Results

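The genes described here encode the SR proteins (Srsf genes), the SR-like Tra2 proteins and the heterogeneous nuclear ribonucleoproteins (hnRNPs), found as all genes whose symbol matches Srsf plus a number, Tra2a, Tra2b or Hnrnp plus letters and digits. The rule found 31 of 37146 genes, with 11 Srsf, 2 Tra2 and 18 Hnrnp genes, and these have 222 rows, of which 192 are transcripts and 30 are rows spanning a whole gene. The study measured liver RNA of CD-1 mice, an outbred strain, in 1 library of mice given phosphate-buffered saline by mouth (Control) and 1 of mice given titanium dioxide (TiO2) nanoparticles by mouth at 50 mg per kg body weight per day (NP), after 30 min of ultrasonic stirring. The labels used here do not state age, sex, the length of treatment or how many mice each library pools. With 1 library per group there was no test and no replicate check, so each difference below is one between these libraries and not a measured effect of the particles. The series title concerns endoplasmic reticulum stress and plasma glucose, and names no splicing factor.

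SR proteins bind exonic enhancers through RNA recognition motifs and recruit the spliceosome through arginine-serine repeats, while hnRNPs coat nascent RNA and often oppose exon use. Many of these genes control their own level by splicing: a poison exon, a skipped exon or a retained intron places an early stop codon in the transcript, which is then held in the nucleus or degraded by nonsense-mediated decay (NMD). A gene sum alone therefore does not tell how much of the RNA can encode the protein, and the transcript rows were read separately.

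The stretches below set apart rows that several results turn on. Each was read from the GENCODE M21 sequence (build GRCm38) of the transcript with the file's identifier, while the files themselves use build mm9; printed are the coding bases that one transcript has and the other lacks, 5′ to 3′, with an annotated stop codon in capitals. The file's row length equals the M21 length for all transcripts named with them except Hnrnpm-201, at 2339 nt in the files and 2370 nt in M21. In the first pair a cassette exon ends the reading frame, as in transcripts annotated as NMD targets. The Srsf6 exon has 268 nt, of which the 152 up to the stop are shown (chr2:162932815-162932966, plus strand), and the Hnrnpl exon has 70 nt, of which 59 are shown (chr7:28817335-28817393, plus strand).
Srsf6-201 poison exon, absent from coding Srsf6-203: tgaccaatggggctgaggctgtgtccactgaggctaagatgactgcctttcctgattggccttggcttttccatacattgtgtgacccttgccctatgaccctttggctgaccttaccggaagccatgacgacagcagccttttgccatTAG
Hnrnpl-213 poison exon, absent from coding Hnrnpl-202: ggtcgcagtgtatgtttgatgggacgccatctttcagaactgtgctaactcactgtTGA

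In Hnrnph3 the NMD transcript lacks a coding exon instead. That exon has 139 nt, which is not a multiple of 3, so leaving it out shifts the frame (chr10:63018760-63018898, minus strand).
Hnrnph3-202 exon, skipped in NMD transcript Hnrnph3-204: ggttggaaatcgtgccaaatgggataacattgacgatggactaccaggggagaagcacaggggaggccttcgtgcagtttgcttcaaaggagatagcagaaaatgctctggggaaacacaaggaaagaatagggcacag

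In Hnrnph1 a 50 nt exon carries the stop codon of one coding transcript, with a coding region of 1347 nt, and the transcript without it has one of 1416 nt (chr11:50385141-50385190, plus strand).
Hnrnph1-201 exon, absent from Hnrnph1-202: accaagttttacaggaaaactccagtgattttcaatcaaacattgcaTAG

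Coding stretches whose length is a multiple of 3 separate transcript pairs of Hnrnpm (117 nt, chr17:33666530-33666646, minus strand), Hnrnpd (147 nt, chr5:99963731-99963877, minus strand) and Hnrnpab (141 nt, chr11:51601750-51601890, minus strand). They are shown because the Hnrnpm stretch belongs to a row seen in 1 library only, while the Hnrnpd and Hnrnpab pairs kept similar shares in both. The Hnrnpm pair differs at a further place in the coding region, and its 117 nt are part of a 192 nt exon. The coding region has 2037 nt in Hnrnpm-202 and 2070 nt in Hnrnpm-201, so the transcript with the printed stretch has the shorter one. By their total lengths, the other printed pairs also differ outside the printed stretch, as Hnrnph3-202 at 2168 nt and Hnrnph3-204 at 1633 nt do. A difference between the rows of a pair is therefore no measure of the printed stretch alone. The Hnrnpd exon is the one that separates the p42 protein, which has it, from p37.
Hnrnpm-202 stretch, absent from Hnrnpm-201: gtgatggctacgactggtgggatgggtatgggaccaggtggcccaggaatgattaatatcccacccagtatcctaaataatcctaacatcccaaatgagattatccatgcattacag
Hnrnpd-203 exon, absent from Hnrnpd-202: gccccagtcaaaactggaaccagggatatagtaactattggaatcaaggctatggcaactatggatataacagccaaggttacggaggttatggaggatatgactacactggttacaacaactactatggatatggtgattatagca
Hnrnpab-203 exon, absent from Hnrnpab-201: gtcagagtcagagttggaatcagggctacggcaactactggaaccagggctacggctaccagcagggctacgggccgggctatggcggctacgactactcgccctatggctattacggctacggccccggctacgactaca

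Values are FPKM, fragments per kilobase of row, scaled to the number of mapped fragments, with the 95% interval deposited for each row, which covers estimation within a library and no spread between animals. A gene sum adds all rows of a gene. Read coverage per FPKM was 2.29 in Control and 2.93 in NP, so NP was read 1.28 times as deeply. The tissue label was checked on 12 hepatocyte genes, all of them detected, with Alb at 21660 FPKM in Control against 30741 in NP. Their sum was 57564 FPKM in Control and 68550 in NP. Each of 5 marker lists of other liver cells summed lower in NP. The 12 sinusoidal endothelial genes were at 109 and 84.1 FPKM (Eng and Egfl7 at 0 in both libraries), and the 12 Kupffer cell genes in the files at 66.7 and 46.5. The 10 stellate cell genes were at 153 and 126 FPKM, the 11 lymphoid genes at 24.9 and 16.0, and the 6 cholangiocyte genes at 18.0 and 14.3. Splicing factors are made by all these cells, the part of cell makeup in the results below was not tested, and in bulk tissue fewer cells of a type and less RNA per cell cannot be told apart.

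Of the 31 genes, 30 passed a filter on a mean of at least 1 FPKM. Srsf12, an SR protein of restricted expression, did not: it was listed at 0 in Control but at 0.000624 FPKM in NP. The members together summed to 1137 FPKM in Control and to 1114 in NP (ratio 0.980). On the scale of log2((NP + 1)/(Control + 1)) their median was -0.01, beside -0.03 over all 10657 genes that passed the same filter. By that scale 2 of 30 members, Srsf3 and Srsf9, were at least 1.5-fold higher in NP, against 3.67% of all genes, and 0 were at least 1.5-fold lower, against 5.79%. Ratios of the FPKM sums ran from 0.738 (Hnrnpu) to 1.60 (Srsf3 and Srsf9), with 14 above 1 and 16 below. The 95% intervals of the sums were separate for 9 members, 5 with NP above (6.95% of all genes) and 4 with NP below (8.17%). With the half-widths of a gene's rows added instead of combined in quadrature, 4 members had separate intervals, against 10.5% of all genes. The median of the group thus lay close to that of all genes, with the sums of 21 members inside overlapping intervals.

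**Figure D1:**
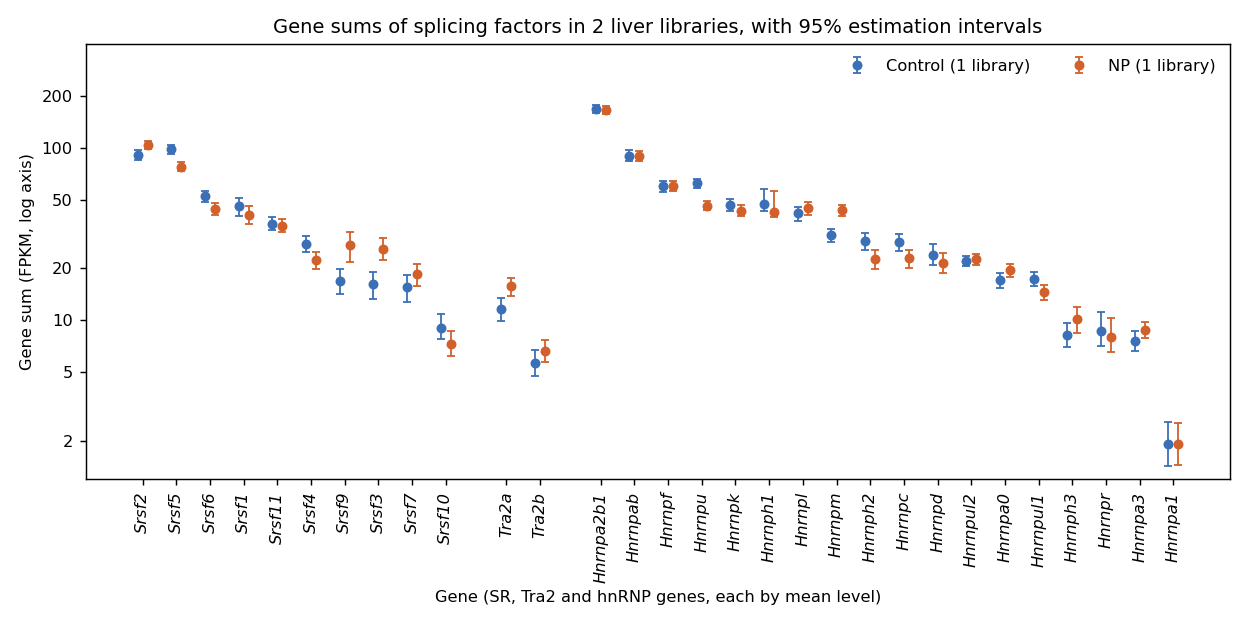
Summed FPKM of the 30 splicing factor genes that passed the filter (log axis), Control in blue and NP in orange, 1 library each, with the 95% estimation interval combined over rows as bars. Hnrnpa2b1 was the highest at 168 and 166 FPKM, and Srsf3 and Srsf9 show the widest gaps, at 16.2 and 26.0 FPKM and at 16.9 and 27.2 FPKM.

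Among the SR genes, Srsf2, which encodes a classical enhancer-binding SR protein (SC35), and Srsf5 had the highest sums. Srsf2 was at 90.7 FPKM (85.0 to 96.5) in Control against 104 (98.1 to 110) in NP, with the NP interval above. Much of that gap lay in its gene-span row, at 9.58 FPKM in Control and 17.5 in NP. The transcript rows of Srsf2 alone summed to 81.2 and 86.4 FPKM, a ratio of 1.06. Srsf5 was at 97.9 FPKM (92.2 to 104) and 77.7 (73.1 to 82.4), with the NP interval below, and the pair thus changed places in the order. Srsf6 was at 52.4 FPKM (48.6 to 56.3) and 44.2 (40.8 to 47.6), again with the NP interval below. The other abundant SR genes had overlapping intervals. Srsf1, which encodes the founding SR protein SF2/ASF, was at 45.8 and 41.0 FPKM, and Srsf11 at 36.2 and 35.3. Srsf4 was at 27.7 FPKM (24.7 to 30.6) and 22.3 (19.8 to 24.8), intervals that meet only at their ends.

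Srsf3, a small SR protein that mouse studies tie to hepatocyte maturation, was at 16.2 FPKM (13.3 to 19.2) in Control against 26.0 (22.2 to 29.8) in NP, and their ratio was 1.60. Srsf9 was at 16.9 FPKM (14.2 to 19.8) and 27.2 (21.8 to 32.6), also a ratio of 1.60. In both genes the gap lay mainly in a short row. The Srsf3-205 row has 910 nt in the files, while the M21 transcript, typed as a retained intron, has 2110 nt. This row was at 5.99 FPKM (3.52 to 8.46) in Control against 15.2 (11.7 to 18.6) in NP, while the other Srsf3 rows had overlapping intervals. The coding row Srsf3-202 was at 3.09 and 4.03 FPKM, and the NMD row Srsf3-201, with a coding region of 372 nt in M21 against 492 nt in Srsf3-202, at 3.11 and 2.83. The Srsf9-202 row has 474 nt in the files, while the M21 transcript, typed as a processed transcript without a coding region, has 1237 nt. This row was listed at 0 in Control but at 10.5 FPKM (5.81 to 15.1) in NP, while the coding row Srsf9-201 was at 16.9 and 16.7 FPKM. The M21 types of Srsf3-205 and Srsf9-202 thus belong to longer transcripts and may not describe these rows. FPKM weights a fragment more in a short row. When rows were added as FPKM times row length, a measure in proportion to fragments, the ratio was 1.28 for Srsf3 and 1.24 for Srsf9, and 0 members were then 1.5-fold higher. That measure was chosen after the values were seen.

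**Figure D2:**
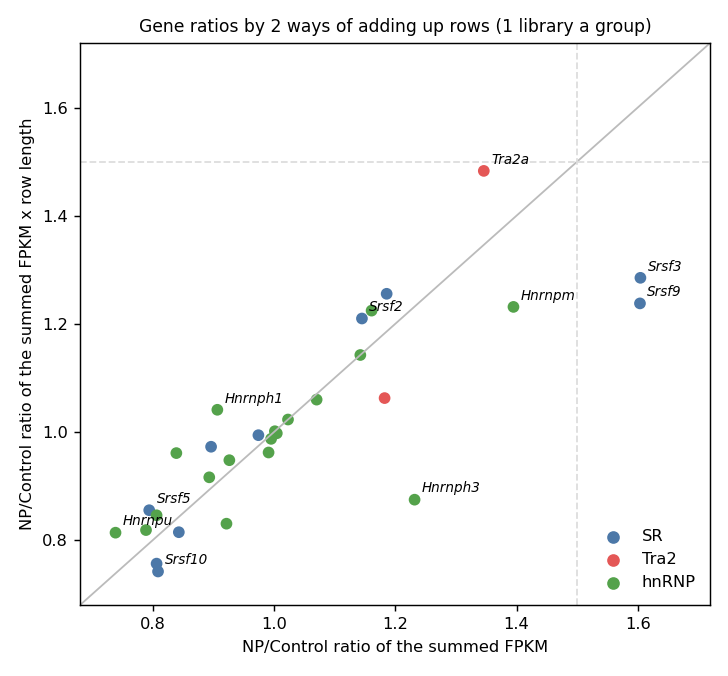
NP/Control ratio of each gene from summed FPKM (horizontal) and from summed FPKM times row length (vertical), 1 point per gene, SR in blue, Tra2 in red and hnRNP in green. The grey diagonal marks equal ratios and the dashed lines mark 1.5; Srsf3 and Srsf9 lie right of 1.5 at 1.60 and fall to 1.28 and 1.24 on the vertical axis, and Hnrnph3 goes from 1.23 to 0.874.

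The less abundant SR genes had overlapping intervals. Srsf7, which like Srsf3 promotes RNA export, was at 15.6 and 18.5 FPKM. Its coding row Srsf7-201 was at 2.45 FPKM (1.59 to 3.32) and 6.23 (4.99 to 7.47), and its share of the gene sum was 15.7% in Control and 33.7% in NP. Srsf10, known as a splicing repressor when dephosphorylated, was at 9.01 and 7.28 FPKM. The Tra2 genes, whose products bind purine-rich enhancers, were both nominally higher in NP. Tra2a was at 11.7 FPKM (9.93 to 13.5) and 15.7 (13.8 to 17.7), with separate intervals and a ratio of 1.35, or 1.48 by FPKM times row length. Tra2b was at 5.65 FPKM (4.77 to 6.70) and 6.68 (5.77 to 7.73), with overlapping intervals. The intervals of the coding row Tra2a-201 itself overlapped, at 11.2 (9.45 to 13.0) and 14.9 FPKM (12.9 to 16.8). The coding row carried 95.9% and 94.5% of the Tra2a sum and 90.2% and 93.1% of the Tra2b sum, and the other 5 transcript rows of Tra2b, including the NMD row Tra2b-206, were at 0 in both libraries.

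The hnRNP genes summed to 711 FPKM in Control and 688 in NP, and 15 of 18 had overlapping intervals. Hnrnpa2b1, which reads purine-rich RNA and N6-methyladenosine sites, was the most abundant member at 168 and 166 FPKM, followed by Hnrnpab at 90.2 and 89.8. Hnrnpf, a G-tract binder, was at 59.8 and 60.1 FPKM. Hnrnpk, a poly(C) binder, was at 46.7 and 43.2 FPKM, and Hnrnpl, a CA-repeat binder that also binds its own transcript, at 41.6 and 44.6. Hnrnph1, a relative of Hnrnpf, was at 47.0 and 42.6 FPKM. All of these abundant hnRNP genes had overlapping intervals.

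The 3 hnRNP genes with separate intervals were Hnrnpu, Hnrnph2 and Hnrnpm. Hnrnpu, a scaffold protein of the nuclear matrix (SAF-A), was at 62.5 FPKM (58.8 to 66.3) in Control against 46.2 (43.4 to 49.0) in NP. Hnrnph2 was at 28.9 FPKM (25.6 to 32.2) and 22.7 (19.95 to 25.5), intervals that only just part. Hnrnpm was at 31.2 FPKM (28.4 to 34.0) and 43.5 (40.1 to 46.9). In Hnrnpu and Hnrnpm a single row made the gap, as given below, and both genes overlap another expressed gene by the files' coordinates. Hnrnpm overlaps March2, at 33.3 FPKM in Control against 32.8 in NP, and Hnrnpu overlaps Gm16586, at 17.8 and 19.3 FPKM. Whether the counting used strand is not given in the sources used here, so reads of overlapping genes may be mixed.

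The remaining hnRNP genes had overlapping intervals. Hnrnpc, which binds uridine tracts, was at 28.4 and 22.9 FPKM, and Hnrnpd (AUF1), which acts on AU-rich messenger RNAs, at 24.1 and 21.5. Hnrnpul2 was at 22.1 and 22.6 FPKM, Hnrnpul1 at 17.4 and 14.6 and Hnrnpa0 at 17.0 and 19.5. Hnrnpr was at 8.70 and 8.02 FPKM, Hnrnph3 at 8.21 and 10.1 and Hnrnpa3 at 7.55 and 8.76. Hnrnpa1, known as an abundant hnRNP in dividing cells, was at 1.93 FPKM in both libraries. All of that lay in its gene-span row, and all 3 of its transcript rows were listed at 0 in both, a value that can be a failed estimate, so no level of Hnrnpa1 transcripts is read from it.

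Row types differed between the families in the same way in both libraries. By transcript types taken from GENCODE M21, rows typed as protein coding held 29.6% of the summed FPKM of SR genes in Control and 32.9% in NP, against 83.8% and 88.1% for hnRNP genes. Over the 6274 genes with 2 or more rows and a mean of at least 5 FPKM they held 82.9% and 84.1%. Rows typed as retained intron held 37.4% and 34.2% of the SR sum, 1.18% and 0% of the hnRNP sum, and 0.708% and 0.706% over those 6274 genes. Rows typed as NMD held 6.05% and 6.13% for SR genes, 2.45% and 2.56% for hnRNP genes and 0.790% and 0.746% over those genes. Weighted by row length, coding rows held 28.5% and 31.5% of the SR sum and retained intron rows 31.9% and 27.7%, so the low coding share did not rest on short rows alone. A further 12.3% and 6.19% of the SR sum lay in rows whose identifiers are not in M21 and have no type here, and 6.92% and 10.3% in gene-span rows. These shares are sums over genes with no spread between animals, and abundant genes weigh most in them. Srsf5, with all its coding rows listed at 0, made up 97.9 of the 408 FPKM of SR genes in Control and 77.7 of 403 in NP. Its row Srsf5-212 held 66.1 of the 153 FPKM in SR retained intron rows in Control and 39.4 of 138 in NP.

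**Figure D3:**
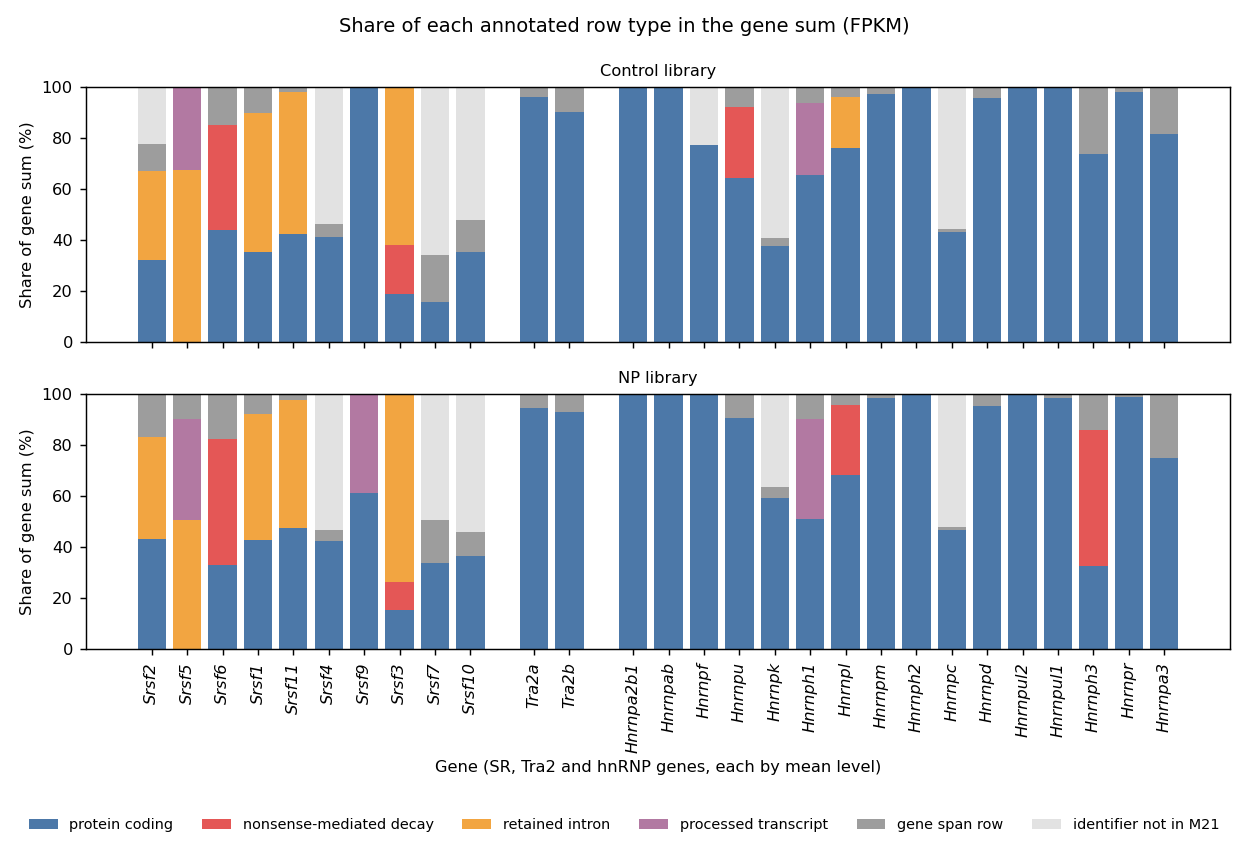
Share of each M21 row type in the summed FPKM of 28 genes (stacked bars, percent), Control above and NP below, 1 library each. Orange retained intron segments hold 67.5% and 50.7% of Srsf5, while most hnRNP bars are blue, with red NMD segments for Hnrnpu in Control and for Hnrnpl and Hnrnph3 in NP.

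Srsf5 had no coding row above 0 in either library, and such zeros can be failed estimates. Its sum lay in the retained intron row Srsf5-212, at 66.1 FPKM (61.5 to 70.7) in Control against 39.4 (36.2 to 42.6) in NP, in the processed row Srsf5-206 (2391 nt in the files and 886 nt in M21), at 31.8 and 30.7, and in the gene-span row, listed at 0 in Control but at 7.64 in NP. The lower Srsf5 sum in NP was thus in the retained intron row. Srsf6 differed in the other type: the coding row Srsf6-203 was at 23.0 FPKM (20.8 to 25.1) and 14.6 (13.0 to 16.2), while the row Srsf6-201 with the poison exon printed above was at 21.6 (18.6 to 24.7) and 21.9 (19.0 to 24.7). The poison exon row went from 41.2% of the Srsf6 sum in Control to 49.5% in NP and became its leading row. In Srsf1 the shares stayed close, with the retained intron row Srsf1-203 at 54.6% and 49.4% and the coding row Srsf1-201 at 35.3% and 36.9%. In Srsf11 the coding row held 42.5% and 47.4%, and the retained intron rows held most of the rest. Srsf2 had its coding row Srsf2-201 at 29.3 FPKM (25.95 to 32.7) and 44.8 (40.8 to 48.7), its retained intron row Srsf2-203 at 31.6 and 41.7, and a row not in M21 at 20.3 FPKM in Control but listed at 0 in NP.

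For shares, 28 members had 2 or more rows and a mean of at least 5 FPKM; Hnrnpa0, with 1 row, and Hnrnpa1 and Srsf12, with low sums, were not among them. A row share moved by at least 20 percentage points in 11 of 28 members, against 13.8% of all 6274 such genes, and the leading row differed in 7 of 28, against 7.35%. These backgrounds hold many genes with a single dominant row, whose shares can hardly move. Among the 2368 genes with 2 or more rows at a mean share of at least 10%, a background chosen after the values were seen, 36.3% had such a move and 19.5% another leading row, beside 11 and 7 of the 24 members of that kind (45.8% and 29.2%). The median of the largest move was 17.4 points for these members and 10.7 for that background. This background is chosen by the same shares, since a row with a move of 20 points has a mean share of at least 10%. It held 859 of the 864 genes with such a move. It therefore cannot show whether the members move more or less than other genes with several used rows. By the number of rows a gene has in the files, 0 of 7 members with 2 to 4 rows had such a move (5.55% of all such genes), 8 of 13 with 5 to 8 rows (16.6%) and 3 of 8 with 9 or more rows (31.4%). A move of 30 points or more was seen in 2 members, Hnrnph3 and Srsf9, which is 7.14% of the 28, against 8.14% of the 6274 genes. Both are among the 24 members with several used rows, and 21.5% of the 2368 genes of that kind had such a move. Just inside the 20 points were Srsf3 at 21.3 and Hnrnpk at 21.8, and just outside were Srsf7 at 17.9 and Srsf5 at 16.8.

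**Figure D4:**
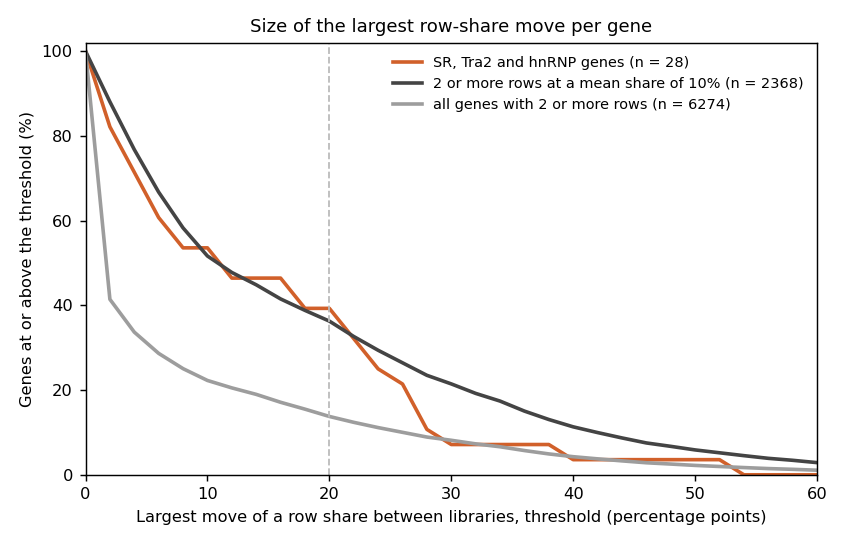
Percent of genes whose largest row-share move between the libraries is at or above a threshold (horizontal, percentage points), for the 28 splicing factors, all 6274 genes with 2 or more rows and the 2368 genes with 2 or more rows at a mean share of 10%. The orange line of the splicing factors lies far above that of all genes at 20 points and near that of the genes with several used rows. That last set is chosen by the same shares and takes in most genes with such a move. At 30 points the orange line lies near that of all genes.

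The largest move was in Hnrnph3. Its coding row Hnrnph3-202 was at 6.04 FPKM (4.86 to 7.23) in Control against 3.32 (2.40 to 4.24) in NP, and the NMD row Hnrnph3-204, which lacks the 139 nt exon printed above, was listed at 0 (upper limit 0.141) and at 5.37 (3.996 to 6.74). The coding row thus held 73.6% of the sum in Control and 32.8% in NP, and the NMD row 53.1% in NP. The Hnrnph3 span overlaps Rufy2, at 2.26 and 1.55 FPKM. Hnrnpl also had an NMD row in NP only: the row Hnrnpl-213 with the poison exon printed above was listed at 0 (upper limit 0.123) in Control but at 12.3 FPKM (10.2 to 14.3) in NP. Of its coding rows, Hnrnpl-202 was at 22.0 (19.1 to 25.0) and 11.9 FPKM (9.75 to 14.1), and Hnrnpl-201 at 9.63 (7.79 to 11.5) and 18.4 (16.2 to 20.7). The retained intron row Hnrnpl-212 was at 8.36 FPKM in Control but listed at 0 in NP. Despite these moves the Hnrnpl sum was at 41.6 and 44.6 FPKM with overlapping intervals.

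Hnrnpu went the other way, with its NMD row in Control only. Hnrnpu-206 was at 17.4 FPKM (15.1 to 19.7) in Control against listed at 0 (upper limit 0.0682) in NP, and the coding row Hnrnpu-201 was at 40.3 (37.3 to 43.2) and 41.9 (39.2 to 44.6). The lower Hnrnpu sum in NP was thus mainly in the NMD row, whose M21 coding region of 2379 nt is nearly as long as the 2400 nt of Hnrnpu-201. NMD rows of hnRNP genes summed to 17.4 FPKM in Control and 17.6 in NP, which hides that these came from different genes.

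In Hnrnpm, whose product binds GU-rich RNA, the coding row Hnrnpm-201 was at 30.3 FPKM (27.6 to 33.1) and 30.2 (27.4 to 33.0). The row Hnrnpm-202, with the 117 nt stretch printed above, was listed at 0 (upper limit 0.0867) in Control but at 12.6 FPKM (10.8 to 14.4) in NP. In Hnrnph1 the row without the 50 nt exon, Hnrnph1-202, was at 12.8 FPKM (10.5 to 15.1) in Control against listed at 0 (upper limit 0.0934) in NP. The row Hnrnph1-201, which has that exon, was at 18.0 (15.4 to 20.6) and 21.7 (19.1 to 24.2) with overlapping intervals.

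In Hnrnph2 the moves were between rows that have a single coding region, of 1347 nt in M21, and differ outside it. Of these 4 rows, Hnrnph2-205 was at 14.8 and 5.998 FPKM and Hnrnph2-201 at 14.0 and 9.13, while Hnrnph2-202 and Hnrnph2-203 were listed at 0 in Control but at 4.93 and 2.69 FPKM in NP. In Hnrnpf, Hnrnpf-201 and Hnrnpf-202 share a coding region of 1245 nt; no coding region is known here for a further row that is not in M21. Hnrnpf-202 was listed at 0 in Control but at 13.4 FPKM in NP, and the row not in M21 was at 13.7 FPKM in Control but listed at 0 in NP. The leading Hnrnpf-201 stayed at 46.2 and 46.7 FPKM. Hnrnpk had its coding row Hnrnpk-201 at 17.5 (15.4 to 19.7) and 25.6 FPKM (23.2 to 28.1), and a row not in M21 at 10.1 FPKM in Control but listed at 0 in NP.

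**Figure D5:**
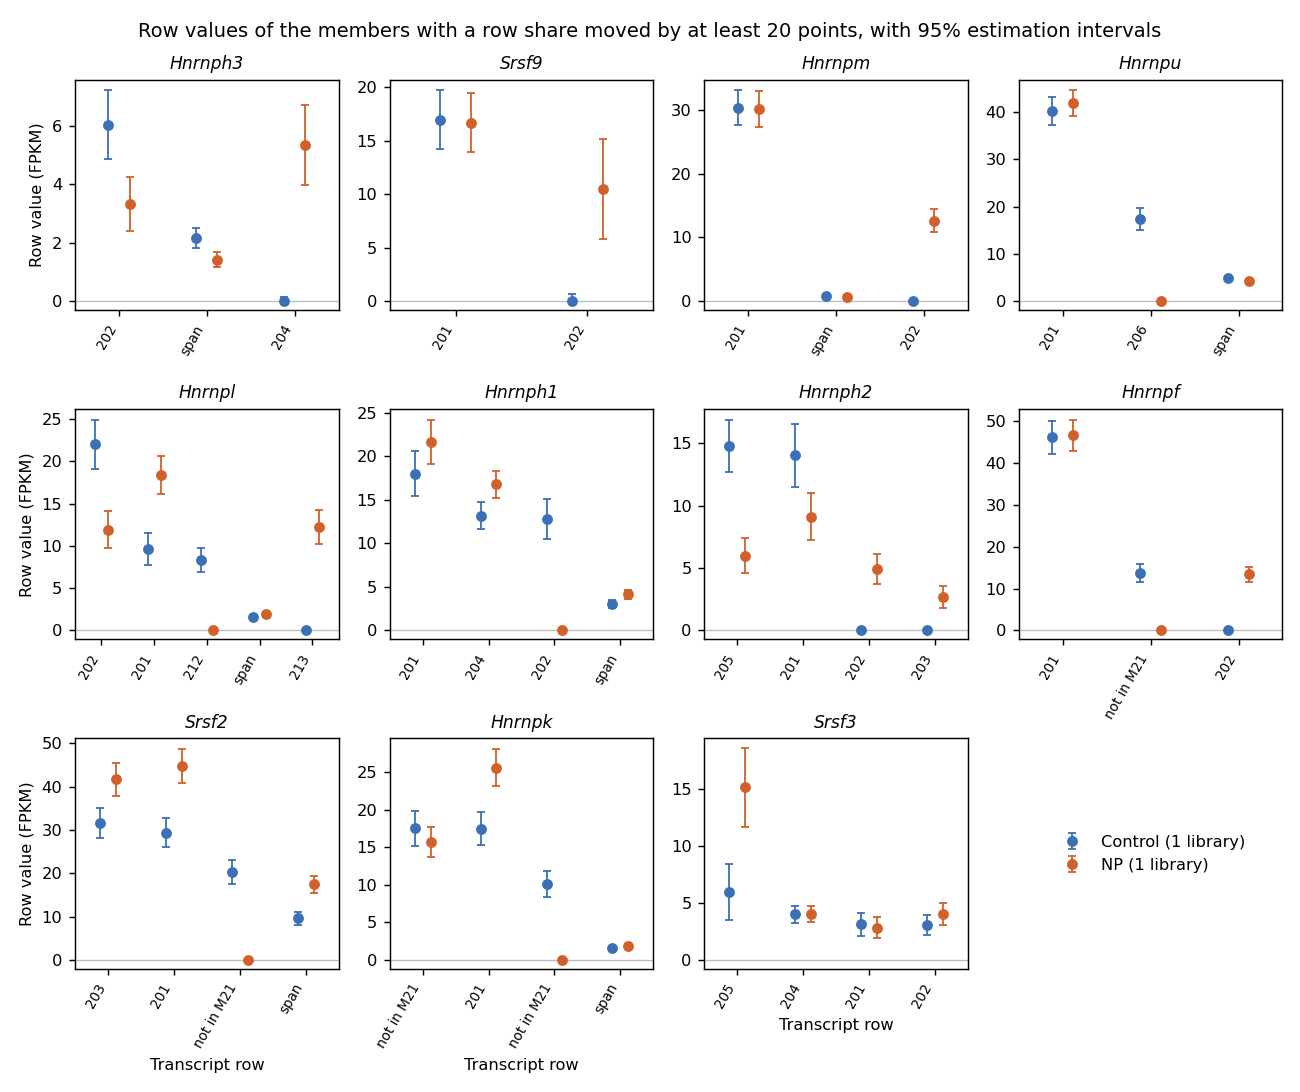
FPKM of each row with at least 2% of the gene sum, with 95% estimation intervals, in the 11 genes with a share move of at least 20 points, Control in blue and NP in orange, 1 library each; labels are M21 transcript numbers, span is the gene-span row. In 9 of these genes a row at 5 FPKM or more in 1 library sits at 0 in the other, as for Hnrnpm-202 and Hnrnpu-206.

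Rows at 0 in 1 library were frequent in these moves. Of 55 member transcript rows with at least 5 FPKM in a library, 11 were listed at 0 in the other, 5 in Control and 6 in NP, in 9 genes; over all 7600 such rows the share was 6.71%. A row at 0 in 1 library and at least 20% of the sum in the other was found in 10 of 28 members, against 11.5% of all genes and 30.5% of the genes with several used rows, where it was 10 of 24 members. The set with several used rows held all 723 genes of this kind, so its share is no independent background. A value of 0 beside transcripts of the same gene that share most exons can be a failed or shifted estimate, and the deposited upper limits of such rows do not cover that. No fold is therefore given for them, and a row switch read from 1 library a group has no replicate check.

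Several hnRNP genes with more than 1 coding form kept their shares within a few points. Hnrnpab-203, with the 141 nt exon printed above, held 61.8% and 63.3% of its gene sum, and Hnrnpab-201, without it, 38.2% and 36.7%. Hnrnpd-203, with the 147 nt exon, held 54.6% and 49.6%, and Hnrnpd-202 41.1% and 45.8%. The 3 coding rows of Hnrnpa2b1 held 36.1%, 33.9% and 30.0% in Control and 42.3%, 30.6% and 27.1% in NP, each with overlapping row intervals. Of these, Hnrnpa2b1-203 has 4086 nt as deposited and 1728 nt in M21, and Hnrnpa2b1-202 has 1582 and 1662 nt. The M21 types may therefore not describe these rows. In Hnrnpr the leading row differed, Hnrnpr-201 with 37.8% in Control and Hnrnpr-204 with 47.8% in NP, but all its row intervals overlapped except that of its gene span, and both rows have a single coding region of 1593 nt. In Hnrnpc, Srsf4 and Srsf10 the largest share moves were 3.70, 1.13 and 3.35 points, and in Hnrnpul1 and Hnrnpul2 a single row held 98.3% or more.

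Other genes of splicing and RNA decay were read against the 9.46% of all genes that passed 1.5-fold in either direction. Genes at the ends of each list are those on the log2(FPKM + 1) scale. Of 23 measured SR protein kinases and partners, 0 were 1.5-fold higher and 1 was lower, with a median log2 ratio of -0.09. That was Srpk2, an SR protein kinase, at 2.52 FPKM in Control against 0.0759 in NP, while Acin1, of the exon junction complex, at 15.2 and 11.4. At the other end were Tnpo3, which imports SR proteins into the nucleus, at 14.7 and 18.2 FPKM, and the SR kinase gene Clk1 at 40.9 and 45.5. Of 39 spliceosome genes, 2 were higher by that rule and 2 lower, near that background, and the median was 0.03. Eftud2, a U5 component, was listed at 0 (upper limit 1.43) in Control but at 8.54 FPKM in NP. It counts as higher by that rule, though its 0 can be a failed estimate. Snrpd1, a core Sm protein gene, was at 6.40 (4.37 to 8.43) and 11.5 (8.88 to 14.1). Prpf38b was at 27.5 (23.98 to 31.2) and 15.6 FPKM (14.0 to 17.3), and Snrpg at 2.72 and 1.28 with overlapping intervals.

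Of 37 other splicing regulators, 0 were 1.5-fold higher or lower, with a median of -0.05. The lowest log2 ratios were those of Cirbp, a cold-inducible RNA-binding protein, at 27.2 and 19.3 FPKM, and of Hnrpll, a relative of Hnrnpl under an older symbol that the rule does not match, at 7.92 and 5.79. The highest were those of the paraspeckle gene Pspc1, at 2.09 and 3.05 FPKM, and of Celf2, at 1.74 and 2.29. Of 17 NMD factors 0 were 1.5-fold higher or lower, with a median log2 ratio of -0.00. Smg6, the NMD endonuclease, was at 7.01 (6.24 to 8.18) and 9.15 FPKM (8.29 to 10.3), and Magoh, of the exon junction complex, at 21.9 and 28.0. Smg1, the kinase of the central NMD factor, was at 5.09 (4.66 to 5.52) and 4.05 (3.70 to 4.40), and Smg5 at 10.5 and 8.78.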

How the data were processed

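Liver RNA of 1 Control and 1 NP library was compared. Per the labels' protocols, RNA was extracted from frozen liver with Trizol and libraries were made with a TruSeq RNA kit from total RNA. The submitters' processing notes list TopHat2 2.1.0, Cufflinks 2.2.1.0 and mm9; what each was used for is not given in the sources used here. Whether counting used strand is not stated. The authors deposited FPKM with 95% bounds per transcript and gene-span row, and, per the file headers, read coverage, a signal whose ratio to FPKM was taken as relative depth. Row lengths in nucleotides are also deposited. The total number of fragments is not given.

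Rows were matched by identifier and summed per gene; half-widths were combined in quadrature, which leaves out covariance between rows. Genes needed a mean of at least 1 FPKM (5 for shares, with 2 or more rows and a sum above 0 in both libraries) and an OK status in all rows. Calls used 1.5-fold on log2(FPKM + 1) or a share move of 20 points, with no test. Types came from GENCODE M21 by transcript identifier: 174 of 192 member transcript rows matched, 144 with equal length, and of 66 above 0, 58 and 38. Types may differ from those of the authors' annotation.

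Members and lists were chosen with earlier results of these data known. A further marker list is not reported here. Named with values were a fixed set of members, members past 1.5-fold, the 4 highest and 4 lowest ratios, members with a share move of 20 points or another leading row, and up to 2 genes at each end of each context list. Alternatives covered pseudocount, filter, scaling, rows used, status and thresholds. The size and share rules were run on simulated data with known 2-fold changes and row switches put in. The simulation gave each row independent noise and no interval. It therefore does not bear on estimates shifted between rows of a gene or on the overlap of intervals. Python 3.11.15, pandas 2.3.3, numpy 2.4.6 and matplotlib 3.10.9 were used.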

Additional observations from a re-analysis of the deposited data

How the results depend on the processing

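With 1 library a group nothing here bears on animals, depth limits rows of a few FPKM most, and no replicate could be left out. No paired analysis was possible because each group has 1 library. The median log2 ratio of members ran from -0.01 to 0.02 under its alternatives, and the counts of moved shares and of leading rows stayed within 1.5 times under all but the ones named next. With a threshold of 30 points 2 members had a moved share. At a size rule of 2-fold, and by FPKM times row length, 0 members were higher in NP. Taking only the row with the highest mean, 3 members were lower in NP (Hnrnph3, Hnrnpl and Srsf5), against 7.65% of all genes, and the log2 ratio of Srsf9 turned to -0.020 because the short row is then left out. With half-widths added instead of combined in quadrature, 4 members had separate intervals, against 10.5% of all genes. With transcript rows only, 7 of 29 members had separate intervals, against 15.3% of all genes. Where genes needed a mean of 5 FPKM, 0 SR protein kinases and partners and 2 spliceosome genes were past 1.5-fold, since fewer genes are tested. Of 268 values of single members under alternatives, 244 moved by less than their interval half-width. The sign differed in 20, of which 13 came from using only the highest-mean row, 3 from FPKM times row length and 4 from scaling NP; Srsf9 was the only one of these past 1.5-fold in the values reported.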
